A study of Rattus norvegicus with 6 samples.

Results

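The insulin-like growth factor (IGF) binding proteins, their ligand IGF1 and the IGF receptors were followed in rat renal cortex after repeated dosing with phenylbutazone, a cyclooxygenase inhibitor of the non-steroidal anti-inflammatory class. The 10 genes, 7 binding protein genes (Igfbp1 to Igfbp7) together with Igf1, Igf1r and Igf2r, were selected by name and found on the array through the RefSeq accession of each probe. They are 10 of 29938 genes tested. The family came into view because Igfbp4 was lower in this same comparison of these 6 animals, so the differences between the groups are given here as a description, and no test of them supports anything further.

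One group of 3 male Sprague-Dawley rats, bought at an age of 5 weeks, received phenylbutazone at 200 mg/kg/day for 4 weeks. The other group of 3, of the same sex, strain and age, received corn oil as the vehicle over the same 4 weeks. Total RNA of the renal cortex of each animal was hybridised to 1 one-colour Agilent array, and the series design calls the 3 samples in each group biological replicates. Levels are log2 values relative to the 75th percentile of the array, so that 0 marks that percentile. They can be compared between arrays for a given probe, but not between probes. Sums of levels over marker genes, given below, weight each gene by the brightness of its probe, so a few bright probes can set them.

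The cortex label was set against marker lists, and all 10 proximal tubule and all 8 podocyte markers were measured above background, as were all 8 renal medulla markers. On each array 65.2% to 68.4% of probes stood well above background. Vehicle arrays 1 and 2 were on slide 1, and vehicle array 3 shared slide 2 with the 3 phenylbutazone arrays, which were scanned on another day than slide 1. Slide 2 alone therefore gives a comparison of 3 phenylbutazone arrays with 1 vehicle array. The standard error (SE) given for slide 2 alone comes from the spread of the phenylbutazone arrays and holds no spread between vehicle animals. Of the 11 tested erythrocyte markers 10 had a higher mean with phenylbutazone, with summed levels of 439 to 683 times the 75th percentile on phenylbutazone arrays and 378 to 518 times on vehicle arrays, and their part in the differences below was not tested.

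IGF1 and IGF2 are peptide growth factors related to insulin that act through the receptor tyrosine kinase IGF1R. The binding proteins hold the ligands in blood and tissue fluid, lengthen their life and limit their access to the receptor, and proteases release the ligand again. In the kidney the system is known for its effects on glomerular filtration, tubular growth and phosphate handling.

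Across the family the binding protein genes differed in opposite directions. Igfbp4 was 2.45-fold lower and Igfbp1 was 3.03-fold higher in the phenylbutazone group, with smaller differences of Igfbp6 and Igf2r (higher) and Igfbp5 (lower). In these 5 genes the values of the 2 groups did not overlap. In 3 of the 10 genes (Igfbp1, Igfbp6 and Igf2r) all phenylbutazone values lay above all vehicle values, against 12.1% of all genes tested, and in 2 of the 10 (Igfbp4 and Igfbp5) all lay below, against 9.39% of all genes. Since the family was brought up by this same contrast, nothing is read from these counts. In a count on slide 2 alone, added after seeing the data, 3 genes had all phenylbutazone values above vehicle 3 (41.4% of all genes) and 3 had all below it (31.1% of all genes), the third being Igf1r. With limma and Benjamini-Hochberg adjustment over all genes, 0 of the 10 passed an adjusted p of 0.05, and 0% of all genes did. At an unadjusted limma p under 0.05 there were 5 of the 10 and 3657 of the 29938 genes tested, and nothing is read from this count. With an intensity trend limma called 8 of the 29938 genes, none of them in the family. Without vehicle replicate 3, where the treatment and the slide coincide, limma called 814 of the 29938 genes, among them Igfbp6 and Igfbp7. The median log2 difference of the 10 genes was 0.22, beside 0.015 over all genes tested.

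**Figure D1:**
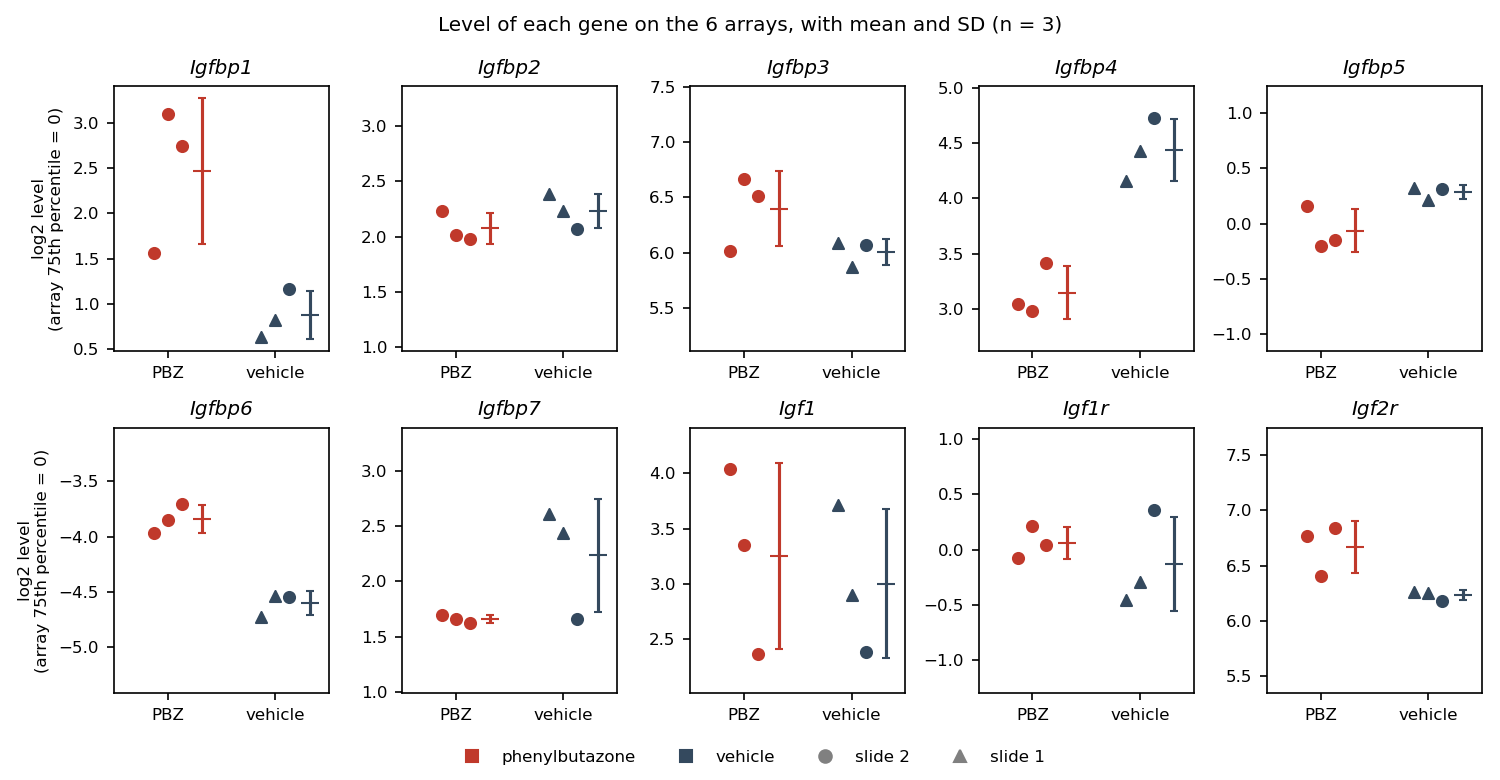
Level of each of the 10 genes on the 6 arrays, as log2 of the processed intensity relative to the 75th percentile of the array. Points are animals (PBZ, phenylbutazone, left; vehicle, right), circles are slide 2 and triangles slide 1, and the bars give the mean ± SD (n = 3). The groups lie apart for Igfbp1, Igfbp4, Igfbp5, Igfbp6 and Igf2r, whereas the vehicle array of slide 2 lies with the phenylbutazone arrays for Igfbp7.

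The regions just before the start sites of Igfbp1 and Igfbp4 are shown because these genes had the largest differences, in opposite directions. The sequences are the 250 bases before the RefSeq start in the assembly GRCr8. Igfbp1 lies at chr14:86261027-86261276 on the plus strand and Igfbp4 at chr10:84491221-84491470 on the plus strand. Capitals mark the letters CAAAACA, the core of the insulin response element that FOXO factors are known to bind, in Igfbp1, and the TATA box letters TATAAA in Igfbp4.
Igfbp1: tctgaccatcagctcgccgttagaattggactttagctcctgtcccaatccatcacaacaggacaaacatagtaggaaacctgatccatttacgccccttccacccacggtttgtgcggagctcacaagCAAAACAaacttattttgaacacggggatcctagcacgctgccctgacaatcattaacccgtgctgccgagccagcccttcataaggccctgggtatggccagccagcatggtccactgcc
Igfbp4: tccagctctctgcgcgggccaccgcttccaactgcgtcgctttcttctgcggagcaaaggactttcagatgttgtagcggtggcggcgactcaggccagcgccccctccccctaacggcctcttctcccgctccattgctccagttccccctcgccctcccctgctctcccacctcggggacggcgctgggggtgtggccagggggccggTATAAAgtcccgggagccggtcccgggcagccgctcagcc

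Besides the CAAAACA match of Igfbp1, Igf1 held the same letters from position -67 relative to its start. On either strand CAAAACA was found in 2 of the 10 family promoters and in 6.28% of 33469 rat promoters of the same length, each of 250 bases before to 50 bases after the start. The TATAAA match of Igfbp4 began at position -40, and that motif was found in 1 of the 10 and in 14.2% of all promoters. TTCNNNGAA, the element that STAT5 is known to bind, was in 0 of the 10 windows and in 8.87% of all. The forkhead core TGTTTAC was in 1 of the 10, Igfbp6, and in 3.78% of all promoters. The GC box GGGCGG was found in 4 of the 10 (Igf1r, Igf2r, Igfbp2 and Igfbp7) and in 33.1% of all, and the hypoxia response core ACGTG in the same 4 genes and in 19.3% of all promoters. In Igf1r, Igf2r and Igfbp2 an ACGTG match overlapped an E-box CACGTG, which was in 3 of the 10 and in 6.42% of all. The GC content of the window was 54.0% for Igfbp1 and 71.0% for Igfbp4, with a median of 51.7% over all promoters. A match of letters is a description of the sequence and was not tested for binding.

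Igfbp4 encodes a binding protein that in most settings holds back IGF action until the protease PAPP-A cleaves it. Its level was 3.04, 2.98 and 3.42 on the phenylbutazone arrays, against 4.16, 4.43 and 4.72 on the vehicle arrays. The groups were apart by 0.74 log2 units, and phenylbutazone 3 was the highest of the treated animals. The difference was -1.29 ± 0.19 log2 units (SE of the limma fit, n = 3 per group), with a limma adjusted p of 0.164 over all genes. On slide 2 alone it was -1.58 ± 0.22. A further Igfbp4 probe gave -2.74, -2.86 and -2.22 with phenylbutazone and -1.79, -1.54 and -1.005 with vehicle. That probe also kept the groups apart, at a difference of -1.16 ± 0.26, and its values over the 6 arrays had a Pearson r of 0.986 with the main probe. Smooth muscle markers, 6 of 8 of them tested (Cnn1 and Lmod1 were not), had summed levels of 9.89 to 11.2 times the 75th percentile on phenylbutazone arrays and 13.7 to 19.1 times on vehicle arrays. These sums did not overlap, although 3 of the 6 tested markers had a higher mean with phenylbutazone and 3 a lower one, with a median difference of -0.059. The groups were apart in 2 of the 6, both lower, beside 9.39% (below) of all genes, and nothing is read from this count. Of 10 fibroblast and mesangial markers 9 were tested (Lum was not). Their summed levels were 31.5 to 39.0 on phenylbutazone arrays and 31.1 to 41.7 on vehicle arrays, and overlapped. The part of either marker list in the Igfbp4 and Igfbp5 differences was not tested. In bulk RNA fewer cells of a type and less RNA per cell cannot be told apart.

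Igfbp5 encodes a binding protein that attaches to extracellular matrix. Its level was 0.16, -0.20 and -0.15 on the phenylbutazone arrays and 0.33, 0.22 and 0.32 on the vehicle arrays. The groups were apart by only 0.059 log2 units, with phenylbutazone 1 nearest to the vehicle animals. The difference was -0.35 ± 0.13 (1.28-fold lower; SE, n = 3 per group) and -0.38 on slide 2 alone, and a further probe gave -0.31 ± 0.11.

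Igfbp1 encodes a small binding protein whose gene is known to be repressed by insulin and induced by fasting, hypoxia and cell stress. Its level was 1.56, 3.11 and 2.75 on the phenylbutazone arrays, against 0.63, 0.82 and 1.16 on the vehicle arrays. Every treated animal was higher than every vehicle animal, but phenylbutazone 1 stood closer to vehicle 3 than to the other treated animals. The treated animals also spread more, with an SD of 0.81 against 0.27 in vehicle animals (n = 3 each). The difference was 1.60 ± 0.40 log2 units, with a limma adjusted p of 0.285, and 1.31 ± 0.70 on slide 2 alone. Only 1 probe represents this gene.

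Igfbp3, which lies 3863 bases from Igfbp1 on chromosome 14 with no protein-coding gene between them and runs on the opposite strand, encodes the main IGF carrier of blood plasma. Its level was 6.01, 6.67 and 6.51 with phenylbutazone and 6.08, 5.87 and 6.07 with vehicle. As for Igfbp1, phenylbutazone 2 and 3 were the highest arrays, and phenylbutazone 1 lay within the vehicle range. The difference was 0.39 ± 0.19 log2 units (1.31-fold higher) and 0.33 on slide 2 alone. Both further probes gave a higher mean with phenylbutazone (0.35 ± 0.15 and 0.27 ± 0.24), although on slide 2 the second of these stood at -0.056. Over the 6 arrays Igfbp1 and Igfbp3 had a Pearson r of 0.93, a description that includes the difference between the groups. The value was not particular to this pair. Igfbp1 had an r of 0.91 with Igfbp6 and of -0.97 with Igfbp5, which lie on other chromosomes.

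Igfbp6 encodes a binding protein that prefers IGF2 as its ligand. Its level was -3.97, -3.85 and -3.71 on the phenylbutazone arrays and -4.73, -4.54 and -4.54 on the vehicle arrays. The groups were apart by 0.57 log2 units, at a difference of 0.76 ± 0.12 (1.70-fold higher; SE, n = 3 per group), a limma adjusted p of 0.173, and 0.70 ± 0.14 on slide 2 alone. The probe was dim: its processed intensity was 57.0, 66.6 and 74.6 on phenylbutazone arrays and 35.8, 43.2 and 39.5 on vehicle arrays, above background on all 6. With normexp background correction of the spot medians and an offset of 50, the difference was 0.34. The part of the offset, which is of the size of these intensities, was not tested. Without vehicle replicate 3 it was 0.79, with a limma adjusted p of 0.0493.

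Igfbp2 encodes a binding protein that lies 9425 bases from Igfbp5 on chromosome 9 on the opposite strand, with no protein-coding gene between them. Its level was 2.24, 2.01 and 1.98 with phenylbutazone and 2.39, 2.23 and 2.07 with vehicle. The groups overlapped, at a difference of -0.15 ± 0.13 (SE, n = 3 per group) over all arrays and 0.0030 on slide 2 alone. The main probe of Igfbp2 did not follow the other 2 over the arrays, with a Pearson r of -0.16 and 0.13. On slide 2 alone those probes gave -0.35 and -0.36. They stood highest on vehicle 3, where the main probe was lowest among the vehicle arrays.

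Igfbp7 encodes a secreted relative of the family that binds IGFs weakly and is made by vessels. Its level was 1.70, 1.66 and 1.63 on the phenylbutazone arrays, against 2.61, 2.44 and 1.66 on the vehicle arrays. The vehicle array of slide 2 lay within the narrow range of the phenylbutazone arrays, and both arrays of slide 1 lay above every other array. Vehicle 3 was -0.87 log2 units from the mean of vehicle 1 and 2. On slide 2 alone, with no spread between vehicle animals in the SE, the difference of -0.57 ± 0.25 over all arrays was 0.0052 ± 0.095. Without vehicle replicate 3 it was -0.86 with a limma adjusted p of 0.0247. For Igfbp7 the treatment and the slide cannot be told apart beyond that 1 vehicle array. Summed endothelial markers, 11 of 12 tested (Vwf was not), were 78.4 to 96.3 on phenylbutazone arrays and 85.4 to 93.7 on vehicle arrays, and overlapped. Of the 11, 8 had a lower mean with phenylbutazone and 3 a higher one, with a median difference of -0.13, and of -0.35 on slide 2 alone. The groups were apart in 2, both lower, beside 9.39% (below) of all genes, and nothing is read from this count. The part of these markers in the Igfbp7 difference was not tested.

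**Figure D2:**
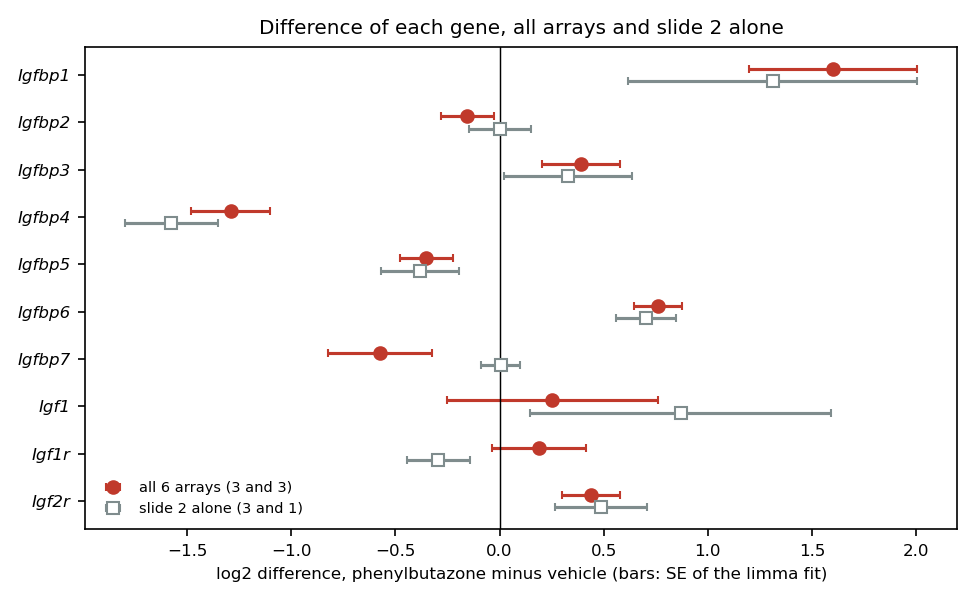
Log2 difference of phenylbutazone minus vehicle for each of the 10 genes, with the SE of the limma fit as bars. Filled circles use all 6 arrays and open squares slide 2 alone, with 3 phenylbutazone arrays and 1 vehicle array. The bars of the open squares hold no spread between vehicle animals. Igfbp4 stands at -1.29 and -1.58 and Igfbp1 at 1.60 and 1.31, whereas Igfbp7 stands at -0.57 and 0.0052.

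Igf1, the ligand made in liver under growth hormone and in many tissues locally, varied more between animals of a group than between the groups. Its level was 4.04, 3.35 and 2.37 on the phenylbutazone arrays and 3.72, 2.90 and 2.38 on the vehicle arrays. The range was 1.67 log2 units among treated animals and 1.34 among vehicle animals, beside a difference of 0.25 ± 0.51 between the groups. On slide 2 alone the difference was 0.87 ± 0.72, since vehicle 3 was the lowest vehicle array. The sign turned without phenylbutazone replicate 1 (-0.14) and without vehicle replicate 3 (-0.056). The 3 Igf1 probes, which carry accessions of 2 Igf1 transcripts, gave the same order of animals within each group, and both further probes had a Pearson r of 0.997 and 0.987 with the main one. Its pooled SD within groups, 0.76 log2 units, was above that of 96.4% of the genes tested. That of Igfbp1, 0.60, was above 94.0%, and the other members lay between 23.7% and 81.9%.

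**Figure D3:**
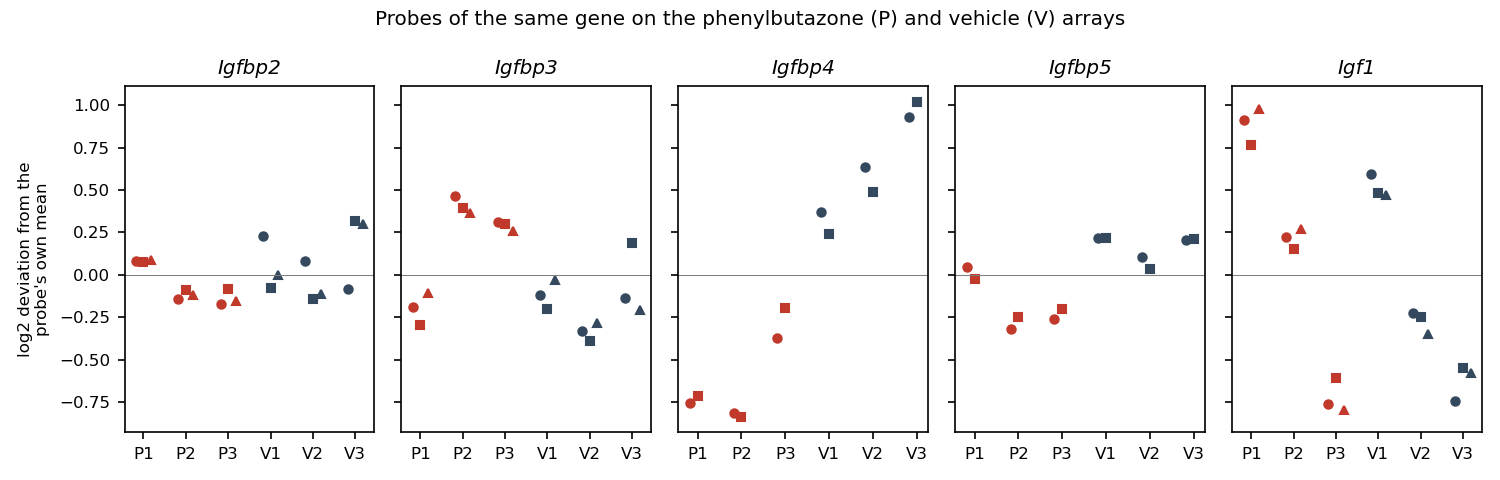
Deviation of each probe from its own mean, in log2 units, on phenylbutazone arrays (P1 to P3, left) and vehicle arrays (V1 to V3, right), for the 5 genes with several probes. Circles are the probe used for the gene, and squares and triangles its further probes. Probes of Igfbp4, Igfbp5 and Igf1 lie close together on each array, whereas those of Igfbp2 part on the vehicle arrays.

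Igf1r encodes the receptor kinase through which both ligands signal. Its level was -0.073, 0.21 and 0.046 with phenylbutazone and -0.45, -0.29 and 0.36 with vehicle. The groups overlapped, since vehicle 3 was the highest and vehicle 1 the lowest of all arrays. The difference was 0.19 ± 0.23 over all arrays and -0.29 ± 0.15 on slide 2 alone, so its sign depends on the vehicle arrays used.

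Igf2r encodes the cation-independent mannose 6-phosphate receptor, which removes IGF2 from the cell surface and carries lysosomal enzymes. Its level was 6.77, 6.40 and 6.84 on the phenylbutazone arrays, against 6.26, 6.26 and 6.18 on the vehicle arrays. The vehicle animals were nearly alike, and phenylbutazone 2 was nearest to them at a gap of 0.14. The difference was 0.44 ± 0.14 log2 units (1.35-fold higher; SE, n = 3 per group) and 0.49 on slide 2 alone.

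The rest of the pathway was read from 5 lists, chosen with earlier results of these data known, and 0 genes of any list passed over all genes with limma. Among 15 partners of the axis (the other ligand, the acid-labile subunit, proteases and their inhibitors, insulin family receptors and IGF2 mRNA binders) 9 were tested, with a median of -0.0052. The groups were apart in 3 of these, 2 higher and 1 lower. For this and the following lists the shares over all genes are the 12.1% (above) and 9.39% (below) given for the family, and nothing is read from the counts. Insrr, which encodes an insulin receptor relative that senses alkaline pH, was -0.30, -0.34 and -0.33 with phenylbutazone and -1.13, -1.07 and -1.31 with vehicle, a difference of 0.85 ± 0.10, although 2 further probes gave 0.26 and 0.42. Igf2bp2, which encodes an RNA-binding protein, differed by 0.56 ± 0.18 and by 0.12 at another probe, and Htra3, which encodes a secreted serine protease with an IGFBP-type domain, by -0.26 ± 0.17. The Htra3 difference was -0.61 on slide 2 alone and -0.083 without vehicle replicate 3. Pappa and Pappa2, the genes of the proteases that cleave Igfbp4 and Igfbp5 protein, were among the 6 not tested.

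Of 13 other proteins that carry an IGFBP-type domain 11 were tested, with a median of -0.037. The groups were apart in 2 of them, Htra3 (lower) and Crim1 (higher), beside 9.39% (below) and 12.1% (above) of all genes. Crim1, which encodes a membrane protein that binds bone morphogenetic proteins, was 4.70, 4.73 and 4.78 on phenylbutazone arrays and 4.17, 4.14 and 4.07 on vehicle arrays, a difference of 0.61 ± 0.089. Both groups were tight, and the difference was 0.66 on slide 2 alone.

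All 10 genes of growth hormone and STAT5 control of Igf1 were tested, with a median of 0.039. Cish, a STAT5 target that feeds back on cytokine receptors, was -1.18, -0.97 and -1.54 with phenylbutazone and 0.55, 0.51 and 0.83 with vehicle. This was a difference of -1.86 ± 0.18, larger in size than that of any of the 10 family genes, and another Cish probe gave -1.56. Its limma adjusted p was 0.115, and 0.0465 with an intensity trend. On the same list the groups overlapped for Socs1 (0.42 ± 0.48), Socs2 (-0.18 ± 0.21) and Socs3 (0.067 ± 0.16). Over the 10 genes 6 means were higher with phenylbutazone and 4 lower. Ptpn11, which encodes the phosphatase SHP2, differed by 0.53 ± 0.16, with 3 further probes at 0.11 to 0.29 and a value of 0.20 on slide 2 alone.

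Without vehicle replicate 3, Cish, Crim1, Eif4ebp1, Insrr, Pik3ca and Ptpn11 had a limma adjusted p between 0.0176 and 0.0466. In that setting the treatment and the slide cannot be told apart.

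Downstream of the receptors, 27 of 32 genes from the insulin receptor substrates to AKT, FOXO and mTOR were tested, with a median of 0.048. All phenylbutazone values lay above all vehicle values in 8 (12.1% of all genes) and below them in 1 (9.39% of all genes). Eif4ebp1, which encodes a repressor of cap-dependent translation that mTOR inactivates, was 2.19, 2.36 and 2.30 with phenylbutazone and 1.57, 1.71 and 1.25 with vehicle. Its difference was 0.77 ± 0.14, with 0.56 at another probe. Pik3ca (a catalytic subunit of phosphoinositide 3-kinase) differed by 0.70 ± 0.17, Tsc2 (an inhibitor of mTOR signalling) by 0.35 ± 0.11 and Shc1 (an adaptor of the receptors) by 0.28 ± 0.11. For these 3 genes other probes stood nearer to 0, as low as -0.018, -0.093 and -0.034. On slide 2 alone the differences were smaller, at 0.33 for Pik3ca, 0.16 for Tsc2 and 0.14 for Shc1. Irs2, a substrate of both receptor kinases, was the gene with lower values, at -0.49 ± 0.19 and -0.14 on slide 2 alone. Its groups were apart by only 0.016 log2 units, and 2 further probes gave -0.38 and -0.056.

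Among 12 genes known to be repressed by insulin signalling 11 were tested, with a median of 0.11. Igfbp1 and Irs2 belong to this list too. Beside them the groups were apart for G6pc1, which encodes the glucose-6-phosphatase of gluconeogenesis, at 8.06, 7.83 and 7.90 with phenylbutazone and 7.42, 7.35 and 7.53 with vehicle. Its difference was 0.50 ± 0.11, with 0.51 at another probe. Klf15, which encodes a transcription factor of gluconeogenesis and amino acid breakdown, differed by 0.39 ± 0.10. In 4 of the 11 genes of this list the groups were apart, 3 higher (12.1% of all genes) and 1 lower (9.39% of all genes).

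**Figure D4:**
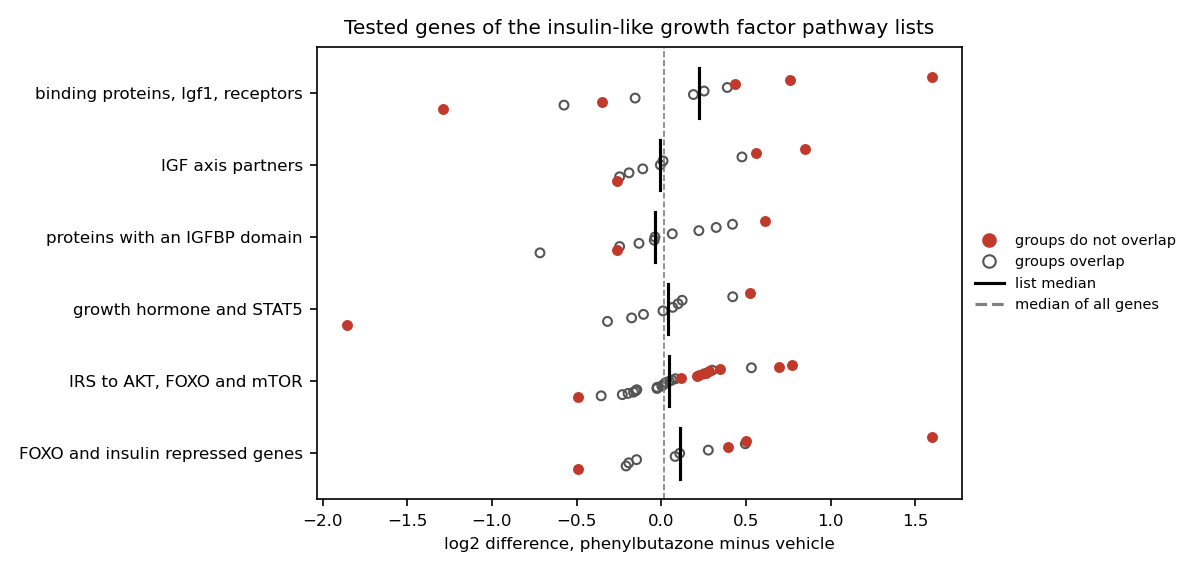
Log2 difference of phenylbutazone minus vehicle for the tested genes of the family and of 5 pathway lists, 1 point per gene. Filled points are genes whose groups do not overlap, thick lines the median of a list and the dashed line the median of all genes, 0.015. The list medians lie between -0.037 and 0.22, and Cish (-1.86) and Igfbp1 (1.60) lie farthest out.

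Patterns over the 6 arrays were compared with those of the other 12154 genes with a symbol, by Pearson correlation. Most like Igfbp4 were Zfp870 (r = 0.994), Mill1 (0.992), Aplnr (0.989), Amigo3 (0.987) and Grm4 (0.977). Their differences were smaller than that of Igfbp4, from -0.73 ± 0.17 for Grm4, which encodes a glutamate receptor, to -0.23 ± 0.089 for Zfp870, with -0.57 ± 0.097 for the apelin receptor gene Aplnr. Most like Igfbp1 were Maff, which encodes a small MAF transcription factor (r = 0.996, difference 0.96 ± 0.24), Trpv5, which encodes the apical calcium channel of the distal nephron (r = 0.996, difference 1.12 ± 0.28), and Il1r2, which encodes a decoy receptor for interleukin 1 (r = 0.988, difference 0.86 ± 0.24). With normexp background correction these differences were 0.51, 0.91 and 0.32. For the genes most like Igfbp4, that correction gave -0.20 for Zfp870, -0.53 for Aplnr and -0.58 for Grm4. Mill1 went from -0.50 to -0.35 and Amigo3 from -0.40 to -0.13. Il1r2 was not well above background on all 6 arrays. Of the 12154 genes, 37 had an r over 0.95 with Igfbp4 and 53 with Igfbp1. These correlations rest on 6 arrays and include the difference between the groups.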

How the data were processed

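Images were read with Agilent Feature Extraction 10.7, per the submitters' processing notes. The deposited scanner files hold the processed intensity of each spot, not normalized between arrays, and, per the file headers, name the probe layout rn4. The deposited value table holds a ratio per probe: the processed intensity over the 75th percentile of its array, to within 0.0050 log2 units for ratios over 0.1.

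Of 62976 spots, 1439 controls and 40 probes with an outlier flag were left out. No spot was saturated. Intensities were divided by the 75th percentile of the array and taken to log2. A probe was kept where 3 or more of 6 arrays had it well above background (41006 probes). RefSeq accessions without version, from a table of the assembly GRCr8, named 28206 of 61537 probes (45.8%). The probe of highest mean level stood for a gene. All 18 probes of the 10 genes passed, well above background on 6 of 6 arrays. Differences over all genes came from limma 3.58.1 (lmFit, eBayes; two-sided) under R 4.3.3 with Benjamini-Hochberg adjustment, and the fit was tested on simulated data. The number of arrays limits the precision.

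The members and lists were chosen with earlier results of these data known. From each pathway list the genes whose groups did not overlap were named, at most the 6 largest differences (1 such gene is not reported here), and for likeness the 5 genes most correlated with Igfbp4 and the 3 most correlated with Igfbp1, the other member of large difference. For normexp the spot and local background medians were used.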

Additional observations from a re-analysis of the deposited data

How the results depend on the processing

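The 19 alternatives changed the scaling, the background correction, the source of the values, the dim-probe filter, how probes stand for a gene, the variance model, the slide, the replicate block or the replicates used. The count of genes past the threshold, 0, was 8 with an intensity trend, 2 with normexp, 1 with quantile normalization, 1 with slide as a random block, and 0 to 814 with a replicate left out, the highest where vehicle replicate 3 was left out and the slides then follow the treatment. The Igfbp4 difference moved to -1.58 with slide as a fixed block and on slide 2 alone, both resting on vehicle 3, and was -1.29 with the replicate block, which called 0 genes. Its limma adjusted p lay between 0.0536 and 0.502 over the 19 alternatives. Deviations of same-numbered arrays from their group means correlated at -0.030, 0.011 and -0.074, and those of differently numbered arrays at -0.099 to 0.10. With 3 arrays per group and the vehicle arrays on 2 slides, these values cannot decide whether the numbers pair animals. Igfbp1, Igfbp3, Igfbp4, Igfbp5, Igfbp6 and Igf2r kept their sign in all 19 alternatives. Igfbp2, Igfbp7 and Igf1 kept it in 17 and Igf1r in 16. These tallies, and the counts of moves and sign changes below, include settings that could not change a difference. An intensity trend and the replicate block leave it unchanged. The dim-probe filters and the fit of every probe on its own kept the same probe for each member. Slide as a fixed block and slide 2 alone give the same difference. Under 0.05 stood Igfbp6 (limma adjusted p = 0.0493) and Igfbp7 (0.0247), each without vehicle replicate 3. Of the differences of members other than Igfbp4, 8 of 171 moved by more than the SD within groups and 9 changed sign. Of other named genes 46 of 417 moved and 0 changed sign, and of list medians 48 of 342 moved and 54 changed sign. The cause was not tested. Single-probe genes and the dim Igfbp6 probe limit what can be said of size.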
